A study of Homo sapiens with 2 samples.

Results

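The genes described here are 10 cytokine genes: the interleukin 6 family ligands IL6, IL11 and LIF, their shared receptor chain IL6ST, the interleukin 1 ligands IL1A and IL1B, and IL24, CSF1, CSF2 and TNF. They were taken by symbol from the 44591 genes of the table, and each symbol matched 1 row. Of the 10 genes, 9 had at least 10 reads summed over both libraries, as had 19840 genes in all. TNF had fewer and was given no fold change.

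RNA was sequenced from HSC-1 cells, an established line of human cutaneous squamous cell carcinoma (cSCC), with 1 library per condition. One library came from cells transfected with a negative control siRNA (siNC), and the other from cells transfected with siRNA against LINP1 (siLINP1), a long non-coding RNA of chromosome 10. By the sample labels, both cultures were about 70% confluent at transfection, spent 6 h in serum-free medium and were kept for a further 24 h in DMEM with serum. The study's methods give a higher confluence and a later time of RNA extraction, and which applied to these libraries cannot be told. Knockdown was transient, and which siLINP1 oligo was sequenced is not given in the sources used here. LINP1 itself had 167 reads in siNC and 23 in siLINP1, 6.28-fold lower (log2 fold change -2.65, 95% interval -3.35 to -2.02).

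The siNC library held 18829544 counted reads and the siLINP1 library 15383081. Every interval given here is a 95% interval that covers counting error only. With 1 library per condition there is no spread between cultures to compare a difference with, so no p-value was computed. Each comparison is between these libraries, not between the conditions. Levels are in RPKM (reads scaled by gene length and by the total of the library). Fold changes are siLINP1 over siNC, from counts scaled by size factors, and a negative log2 fold change means less in siLINP1. In bulk RNA, fewer cells of a type and less RNA per cell cannot be told apart.

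HSC-1 carried few reads of squamous markers. The summed level of 10 keratinocyte markers was 23.4 RPKM in siNC and 15.5 RPKM in siLINP1, of which SFN and KRT14 made up most, and TP63 had 6 and 8 reads. Of these 10 markers, 2 were higher and 3 lower past 1.5-fold. KRT14, a basal keratinocyte keratin, had 243 reads in siNC and 87 in siLINP1 (log2 fold change -1.27, -1.64 to -0.91), while KRT6A, a keratin of activated keratinocytes, had 31 and 45 (0.75, 0.06 to 1.46). Of 10 mesenchymal markers, 7 were above 1 RPKM in either library, and 1 was higher and 3 lower past 1.5-fold. VIM, a mesenchymal intermediate filament, stood at 1520 and 1280 RPKM, most of the summed 2650 and 2080 RPKM. Others were nearly absent, with 4 and 8 reads for COL1A2, 8 and 6 for COL3A1 and 1 and 0 for THY1. The T cell receptor complex genes CD3D, CD3E and CD3G had no read in either library, and the summed level of the lymphocyte markers was 0.812 RPKM in siNC and 1.24 RPKM in siLINP1. Of 12 myeloid markers, 2 were above 1 RPKM in either library. These were CD68, with 1702 and 1307 reads, which made up most of the summed 51.6 and 49.9 RPKM, and ITGAM, an integrin chain of myeloid cells, with 12 reads in siNC and 148 in siLINP1. Of the 7 myeloid markers with enough reads, ITGAM and CD163 (2 and 17 reads) were past 1.5-fold on the higher side and CD14, LYZ, ITGAX and CSF1R on the lower, with at most 35 reads in a library, and the median log2 fold change was -0.75. The pan-leukocyte gene PTPRC had 1 and 4 reads. The part of these marker differences in the cytokine values was not tested.

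Cytokines are small secreted proteins that act through receptors on the same or on neighbouring cells. Most ligands of the interleukin 6 family bind a receptor that includes gp130, the product of IL6ST, and signal through JAK kinases to the transcription factor STAT3. IL-1α and IL-1β bind the same receptor and signal through MYD88 and IRAK kinases to NF-κB, and IL-1β needs cleavage, typically by caspase-1, before it is active. In epithelial tumors these factors link the tumor cells to the surrounding stroma and immune cells. Their mRNAs are mostly short-lived, since many carry AU-rich elements in the 3′ UTR that ZFP36 and related proteins bind.

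The AU-rich stretch of the 3′ UTR is shown for the 3 genes past 1.5-fold, IL11, CSF2 and IL1B. It is also shown for IL6, which lay within 1.5-fold, and for TNF, which was given no fold change. Each line is a stretch of 30 bases of the reference (GRCh37, strand of the gene, 5′ to 3′) chosen for holding the most pentamers, and the pentamer ATTTA is in capitals. The stretches lie at chr19:55877311-55877340 (minus strand), chr5:131411769-131411798 (plus), chr2:113587572-113587601 (minus), chr7:22771323-22771352 (plus) and chr6:31545777-31545806 (plus), in the order of the lines.
IL11: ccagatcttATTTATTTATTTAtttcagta
CSF2: aaaatATTTATTTATTTATTTATTTAagtt
IL1B: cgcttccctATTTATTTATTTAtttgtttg
IL6: tatttttaATTTAttaatATTTAaatatgt
TNF: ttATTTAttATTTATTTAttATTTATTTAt

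The stretches of IL11 and IL1B hold the same run of 3 overlapping pentamers, and that of CSF2 a run of 5. Over the whole 3′ UTR, CSF2 held 8 pentamers in 321 bases (24.9 per kb), IL6 6 in 428 bases (14.0 per kb), TNF 9 in 802 bases (11.2 per kb), IL1B 6 in 613 bases (9.79 per kb) and IL11 9 in 1628 bases (5.53 per kb). The other 5 genes held between 1.85 per kb in CSF1 and 4.37 per kb in IL1A. All 10 were above the median of 1.68 per kb over 13596 genes with at least 10 reads and an annotated 3′ UTR. The longer nonamer TTATTTATT, which contains the pentamer, occurred in IL11 (6 times), TNF (5), CSF2 (3), LIF (2) and IL1B (2), 5 of the 10 genes against 9.55% of those 13596. A match is a description of the sequence and not a site known to be bound.

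Promoter sequence is shown for IL11, CSF2, IL1B and IL6, from RefSeq on the GRCh38.p14 assembly, a later build than that of the counts. Its bearing on their fold changes was not tested. Each line is the stretch of 150 bases before the annotated start, 5′ to 3′ on the strand of the gene, with motif matches in capitals. The positions are chr19:55370464-55370613 (minus strand), chr5:132073639-132073788 (plus), chr2:112836780-112836929 (minus) and chr7:22727050-22727199 (plus).
IL11: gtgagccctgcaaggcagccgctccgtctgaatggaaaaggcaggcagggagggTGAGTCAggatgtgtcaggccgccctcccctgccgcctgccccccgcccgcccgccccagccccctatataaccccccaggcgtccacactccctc
CSF2: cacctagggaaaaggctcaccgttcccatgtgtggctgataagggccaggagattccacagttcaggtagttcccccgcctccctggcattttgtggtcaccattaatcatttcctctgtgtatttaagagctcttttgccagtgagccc
IL1B: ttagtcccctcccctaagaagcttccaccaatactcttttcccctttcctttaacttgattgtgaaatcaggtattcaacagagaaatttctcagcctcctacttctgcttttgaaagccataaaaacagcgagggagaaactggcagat
IL6: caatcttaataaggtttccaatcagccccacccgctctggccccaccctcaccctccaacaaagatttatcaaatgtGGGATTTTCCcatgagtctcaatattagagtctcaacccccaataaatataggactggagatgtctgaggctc

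The 250 bases before the start were searched on both strands for AP-1 (TGACTCA, whose reverse complement is TGAGTCA), the κB consensus, the cAMP response element (TGACGTCA) and an interferon response element (GAAANNGAAA), and on the strand of the gene for TATAAA. The table held 8 of the 10 genes. IL11 had an AP-1 match 96 to 90 bases before its start. IL1A had an AP-1 match 12 to 6 bases before the first of its 2 listed starts. The same site lay 105 to 99 bases before the second start, which had another match 55 to 49 bases before it. This motif occurred in 4.2% of 35116 promoters. The κB consensus matched in IL6, 73 to 64 bases before the start, and in IL6ST, 53 to 44 bases before it, against 9.96% of promoters. IL24 held the interferon response element (3.02% of promoters), and IL1A and TNF held TATAAA (6.8%). None of the 8 held TGACGTCA (1.65% of promoters), and CSF2 and IL1B held none of the motifs.

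IL11 was 3.01-fold higher in siLINP1 and CSF2 2.1-fold higher, IL1B was 2.42-fold lower, and the other 6 genes with a fold change lay within 1.5-fold. The plot of RPKM in both libraries gives all 10 levels. By count, 2 of the 9 genes were higher by more than 1.5-fold, against 14.4% of all 19840 genes, and 1 of the 9 was lower by more than 1.5-fold, against 13.0%. These shares, taken over all genes, do not set the 9 genes apart from the rest. The whole interval lay past 1.5-fold for the same 3 genes, against 3.98% of all genes on the higher side and 2.06% on the lower side. The 9 genes had at least 361 reads each. Among 13336 genes with at least 100 reads, 8.72% lay past 1.5-fold on the higher side and 6.77% on the lower, and the whole interval was past it in 4.18% and 1.97%. Whether the 9 genes as a set stand apart from these better-read genes was not tested. The median log2 fold change of the 9 genes was 0.31, and that of all genes -0.023.

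**Figure D1:**
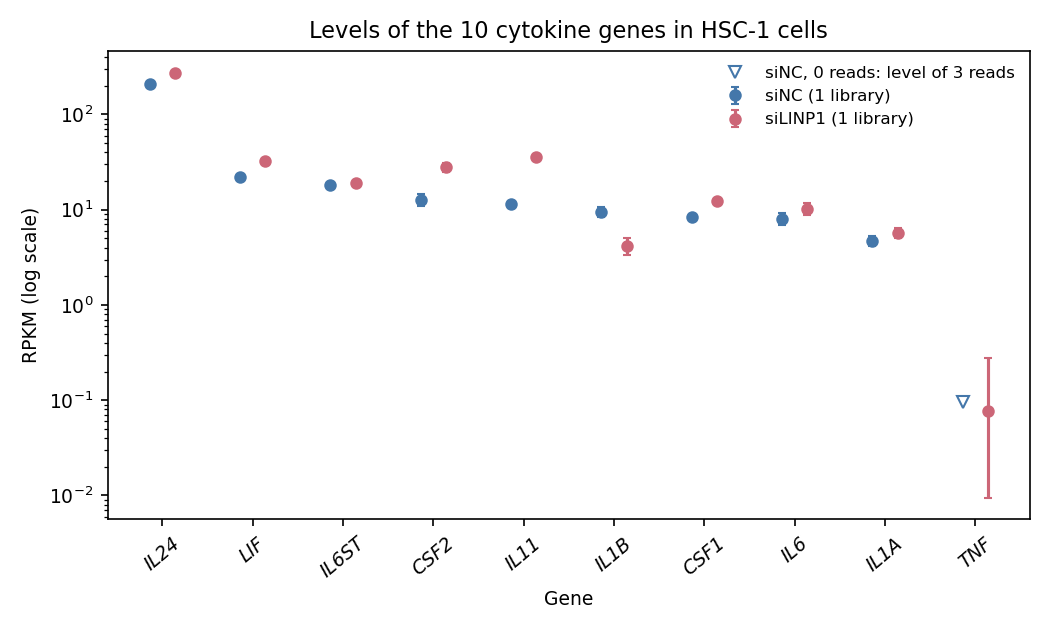
Level of each of the 10 cytokine genes in RPKM (log axis) in the siNC and siLINP1 libraries, 1 library each, with bars for the 95% counting interval. IL11 stood at 11.4 and 36.2 RPKM and CSF2 at 12.7 and 28.1, IL1B at 9.43 and 4.12, and IL24 was the most abundant in both libraries.

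In siNC the order of levels from the top was IL24, LIF, IL6ST, CSF2, IL11, IL1B, CSF1, IL6, IL1A and TNF. The intervals of neighbours overlapped from CSF2 through IL11, IL1B and CSF1 to IL6, so the order within that stretch could not be told from counting error. In siLINP1 the order was IL24, IL11, LIF, CSF2, IL6ST, CSF1, IL6, IL1A, IL1B and TNF. There the intervals of LIF and CSF2, of CSF1 and IL6, and of IL1A and IL1B overlapped. IL11 stood at place 5 in siNC and at place 2 in siLINP1, and IL1B at place 6 and place 9.

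IL11, a ligand of the interleukin 6 family known from bone marrow, stroma and epithelial tumors, lies on chromosome 19 from 55875750 to 55881831 on the minus strand. It had 509 reads in siNC and 1323 in siLINP1. The level was 11.4 RPKM (10.4 to 12.4) in siNC and 36.2 RPKM (34.2 to 38.2) in siLINP1, and these intervals were far apart. The fold of 3.01 (2.71 to 3.34) corresponds to a log2 fold change of 1.59 (1.44 to 1.74), and 565 genes, 2.85% of those compared, had a larger one. Among the 5324 genes whose mean scaled count was within 2 times of that of IL11 (genes of like read count), only 0.413% exceeded it, and their median log2 fold change was -0.02. The plot of fold change against read count shows all 9 genes in this way.

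The 3 genes nearest to IL11 in scaled counts of both libraries were CYLD, GEM and BICD2, over these 2 libraries only. CYLD, a deubiquitinase that restrains NF-κB signalling, had 536 and 1370 reads. GEM, a small GTP-binding protein, had 480 and 1281. BICD2, a dynein adaptor, had 579 and 1306. The distances from IL11, on the log2 scale over both libraries, were 0.09, 0.0966 and 0.187.

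LIF, which acts through gp130 and the LIF receptor, lies on chromosome 22 from 30636436 to 30642840 on the minus strand. It had 1640 reads in siNC and 1972 in siLINP1, or 21.9 RPKM (20.9 to 23.0) and 32.3 RPKM (30.9 to 33.8). Its intervals did not overlap, but the 1.39-fold difference (log2 fold change 0.48, 0.38 to 0.57) was under 1.5-fold. It was exceeded by 7.7% of 3753 genes of like read count. An annotated antisense gene overlaps its 5′ part and had 73 and 104 reads, and another at its 3′ end had 1 and 4. The strand setting of the counting is not given, so reads of LIF and of these genes cannot be told apart.

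IL6, the ligand that gives the family its name, lies on chromosome 7 from 22766761 to 22771621 on the plus strand. It had 181 reads in siNC and 187 in siLINP1, or 8.08 RPKM (6.95 to 9.35) and 10.2 RPKM (8.81 to 11.8). The intervals overlapped. Its log2 fold change of 0.26 had an interval from -0.05 to 0.56, which holds 0 and ends just under 1.5-fold (0.58 on this scale). A non-coding gene on the opposite strand, LOC541472, overlaps its start and had 1 and 3 reads.

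Within a library, the ratio of reads between genes does not depend on the scaling. IL11 had 2.81 reads for each IL6 read in siNC and 7.07 in siLINP1, a ratio 2.51 times as high (1.99 to 3.18). Against LIF, the IL11 ratio was 0.31 and 0.671, 2.16 times as high (1.91 to 2.45). The ratio of IL6 to LIF was 0.11 and 0.0948, and the interval of its change, 0.689 to 1.07 times, held 1. IL11 thus differed more between these libraries than either IL6 or LIF, beyond counting error, while IL6 and LIF could not be told apart in this respect.

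**Figure D2:**
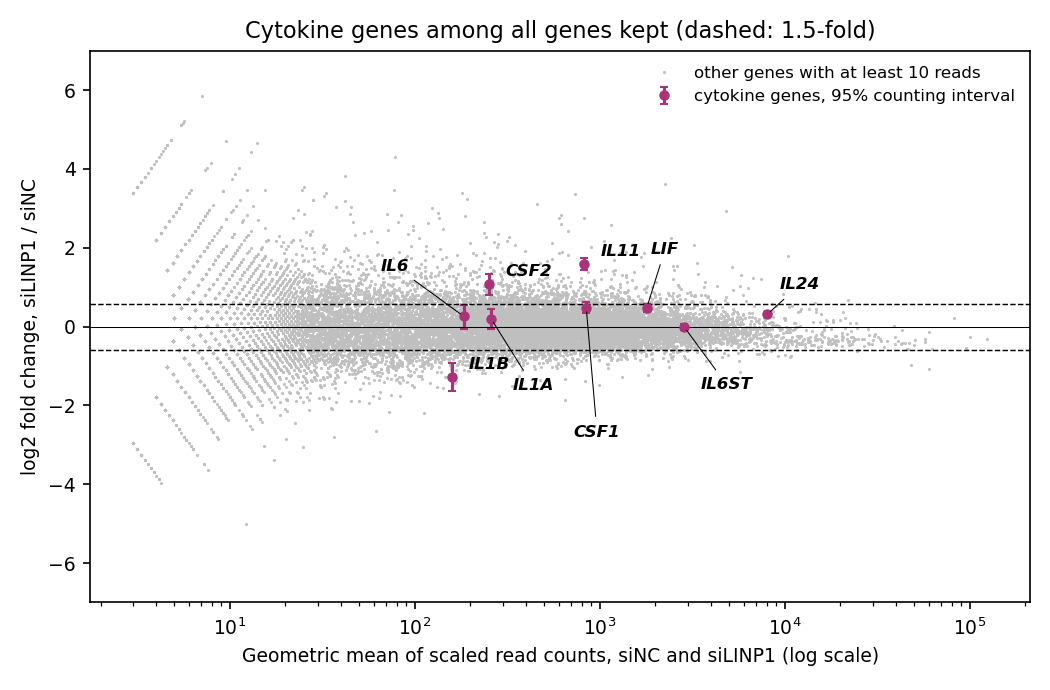
Log2 fold change, siLINP1 over siNC, against the geometric mean of scaled read counts (log axis) for genes with at least 10 reads over both libraries. The 9 cytokine genes are labelled, with bars for the 95% counting interval; 45 genes with no read in a library are not drawn, and dashed lines mark 1.5-fold. IL11 (1.59) and CSF2 (1.07) lie above and IL1B (-1.28) below the lines.

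Of the 10 genes listed as IL6 family ligands, 6 had enough reads to compare, and the median log2 fold change was 0.49. Only IL11 was past 1.5-fold. CLCF1 had 196 and 242 reads (0.51, 0.24 to 0.79), EBI3, a subunit of interleukins 27 and 35, had 216 and 271 (0.54, 0.27 to 0.8), and CNTF had 38 and 41 (0.32, -0.35 to 1.0). OSM and IL27 had no read in either library.

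IL6ST lies on chromosome 5 from 55230923 to 55290821 on the minus strand. It had 3087 reads in siNC and 2657 in siLINP1, or 18.0 RPKM (17.4 to 18.7) and 19.0 RPKM (18.3 to 19.7), and the intervals overlapped. The log2 fold change was -0.01 (-0.08 to 0.07), a narrow interval that held 0, and the value was 0.08 when counts were scaled by the total count. An antisense gene within it had 152 and 169 reads. The ratio of IL6 to IL6ST reads was 0.0586 and 0.0704, and the interval of its change was 0.967 to 1.49 times.

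The ligand-binding chains that pair with gp130 differed in both directions. IL6R, the interleukin 6 receptor α-chain, had 594 and 1024 reads, 4.81 and 10.1 RPKM (log2 fold change 1.0, 0.85 to 1.14). IL31RA, which pairs with OSMR rather than gp130, had 421 and 663 reads (0.86, 0.69 to 1.04). These were the genes of this list of 8 that were higher by more than 1.5-fold, and CNTFR, with 18 and 9 reads, was the lower one. IL11RA, the specific receptor of interleukin 11, had 209 and 146 reads (-0.31, -0.62 to 0.0). LIFR had 231 and 232 reads (0.22, -0.05 to 0.48) and OSMR 2351 and 1640 (-0.31, -0.4 to -0.22), both within 1.5-fold.

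Downstream of gp130, all 10 listed JAK, STAT3 and inhibitor genes had enough reads, 2 were higher by more than 1.5-fold and none was lower, with a median of 0.06. The higher ones were JAK2, a kinase bound to cytokine receptors, with 249 and 332 reads (0.62, 0.38 to 0.87), and SOCS2, an inhibitor of cytokine signalling, with 319 and 425 (0.62, 0.41 to 0.84). The interval of each reached below 1.5-fold. STAT3 had 2950 and 2467 reads (-0.05, -0.13 to 0.03) and JAK1 1318 and 1193 (0.07, -0.05 to 0.18). SOCS3, an inhibitor whose gene is a known target of STAT3, had 833 and 513 reads (-0.49, -0.65 to -0.33).

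IL1A and IL1B are neighbours on chromosome 2, with 44.4 kb between them, and both are transcribed from the minus strand. IL1B, at 113587337 to 113594356, had 266 reads in siNC and 95 in siLINP1, or 9.43 RPKM (8.33 to 10.6) and 4.12 RPKM (3.34 to 5.04). The intervals did not overlap. It was 2.42-fold lower in siLINP1 (1.91 to 3.09), a log2 fold change of -1.28 (-1.63 to -0.93), and 625 genes, 3.15% of those compared, had a lower one. Among 3769 genes of like read count, 0.663% had a lower log2 fold change.

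IL1A, at 113531492 to 113542975, had 261 reads in siNC and 258 in siLINP1, or 4.73 RPKM (4.17 to 5.34) and 5.72 RPKM (5.04 to 6.46). Its intervals overlapped, and the log2 fold change of 0.19 (-0.06 to 0.45) held 0 and lay wholly within 1.5-fold. The 2 genes had nearly equal reads in siNC, with 1.02 IL1B reads for each IL1A read, but 0.368 in siLINP1. This ratio was 2.76 times lower in siLINP1 (0.362 times, 0.267 to 0.488), so the difference between the neighbours exceeded counting error. The plot of ratios between cytokine genes sets it beside the other pairs.

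**Figure D3:**
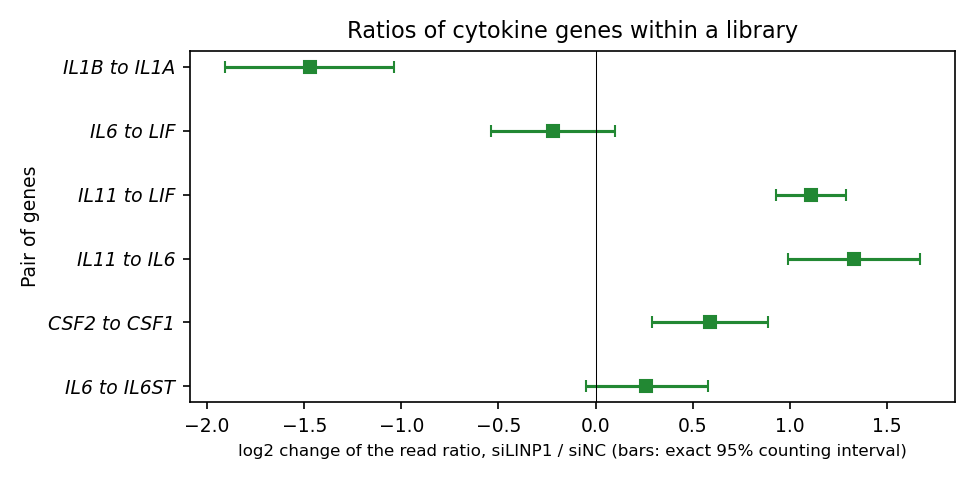
Change from siNC to siLINP1 in the ratio of reads between pairs of cytokine genes, on the log2 scale, with the 95% interval of counting error as bars. IL1B to IL1A (-1.47) lies below 0, IL11 to IL6 (1.33), IL11 to LIF (1.11) and CSF2 to CSF1 (0.59) lie above it, and the bars of IL6 to LIF and IL6 to IL6ST hold 0.

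The IL1 family had few reads otherwise. Of 11 listed ligands and antagonists, 6 had no read in either library and 3 could be compared. IL18, like IL1B a ligand cleaved by caspase-1, had 90 reads in siNC and 40 in siLINP1 (-0.96, -1.54 to -0.41). IL1RN, the receptor antagonist, had 2 reads in siNC and 0 in siLINP1.

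Among 8 IL1 family receptors, 6 could be compared and 2 were higher by more than 1.5-fold, both with the whole interval past it. IL1R1, the signalling receptor of IL-1α and IL-1β, had 68 and 164 reads, 0.612 and 1.81 RPKM (1.48, 1.06 to 1.91). IL1RL1, the receptor of interleukin 33, had 67 and 173 reads (1.58, 1.16 to 2.01). Their shared partner chain IL1RAP had 615 and 611 reads (0.2, 0.04 to 0.36), and the decoy receptor IL1R2 had 1 and 3.

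Of 16 genes of IL1 processing and signalling, 14 could be compared, with 1 past 1.5-fold on each side, and the median was -0.17. IRAK2, a kinase of the receptor complex, had 214 and 349 reads (0.92, 0.67 to 1.17). CASP1, which encodes caspase-1, had 22 reads in siNC and 5 in siLINP1 (-1.93, -3.69 to -0.49), with a wide interval from few reads. MYD88, the adaptor of the receptor, had 644 and 474 reads (-0.23, -0.41 to -0.06).

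IL24, a cytokine of the interleukin 10 family studied for growth inhibition in tumor cells, lies on chromosome 1 from 207070788 to 207077484 on the plus strand. It had 7784 reads in siNC and 8328 in siLINP1, or 209 RPKM (204 to 214) and 274 RPKM (268 to 279), the highest level of the 10 genes in both libraries. It held 53.0% of all reads on the 10 genes in siNC and 51.8% in siLINP1. The fold of 1.24 (log2 fold change 0.31, 0.26 to 0.35) excluded 0 by counting error but was under 1.5-fold. Genes of like read count had a median of -0.12, and 10.3% of these 563 genes exceeded its value. Its 3′ end overlaps FCMR on the opposite strand, which had 1202 and 1004 reads.

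IL24 stood apart from its neighbours on chromosome 1. IL10 had 9 and 16 reads, IL19 0 and 2, and IL20, 28.2 kb away, 0 and 1. Of its receptor chains, IL20RB had 55 and 47 reads (-0.02, -0.61 to 0.57), IL22RA1 had 161 and 74 (-0.91, -1.33 to -0.51), and IL20RA had none in either library.

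CSF2, which encodes the granulocyte-macrophage colony-stimulating factor GM-CSF, lies on chromosome 5 from 131409485 to 131411863 on the plus strand. It had 187 reads in siNC and 339 in siLINP1, or 12.7 RPKM (10.9 to 14.6) and 28.1 RPKM (25.2 to 31.2), and the intervals were far apart. The fold was 2.1 (1.75 to 2.52), a log2 fold change of 1.07 (0.81 to 1.33). A larger one was found for 1177 genes, 5.93% of those compared, and for 2.66% of 4438 genes of like read count. IL3, the cytokine gene 10.6 kb away, had no read in either library.

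CSF1, the macrophage colony-stimulating factor, lies on chromosome 1 from 110453233 to 110473616 on the plus strand. It had 770 reads in siNC and 929 in siLINP1, or 8.32 RPKM (7.74 to 8.93) and 12.3 RPKM (11.5 to 13.1). The intervals did not overlap. Its log2 fold change of 0.48 (0.34 to 0.62) excluded 0, and the interval reached past 1.5-fold. The ratio of CSF2 to CSF1 reads was 0.243 and 0.365, 1.5 times as high in siLINP1 (1.22 to 1.85), so CSF2 differed more than CSF1 beyond counting error. Their receptors had few reads, with 31 and 11 for CSF1R (-1.29, -2.43 to -0.25), 36 and 29 for CSF2RA and 1 in each library for CSF2RB. CSF3 had 3 reads in each library.

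TNF, on chromosome 6 from 31543344 to 31546113 on the plus strand, had 0 reads in siNC and 2 in siLINP1. A count of 0 allows up to 0.0951 RPKM in siNC, and the level in siLINP1 was 0.0776 RPKM, so no difference was detectable at this depth. Its neighbours are LTA, 1.24 kb away, with 6 and 5 reads, and LTB, 2.22 kb away, with 25 and 46 (1.09, 0.36 to 1.85). The receptor TNFRSF1A was abundant, with 5515 and 3615 reads (-0.4, -0.46 to -0.34), and none of 6 genes for TNF receptors and shedding was past 1.5-fold. The sheddase ADAM17 had 1502 and 1067 reads (-0.28, -0.4 to -0.17).

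Of 18 TNF superfamily ligands, 11 could be compared. Past 1.5-fold were 3 on the higher side and 5 on the lower, and for none did the whole interval pass it. TNFSF12, also named TWEAK, had 45 and 14 reads (-1.48, -2.46 to -0.58). TNFSF13, also named APRIL, had 66 and 87 (0.61, 0.13 to 1.09). TNFSF13B, the B-cell factor BAFF, had 27 and 10 (-1.22, -2.43 to -0.13), and TNFSF14 had 23 and 8 (-1.31, -2.68 to -0.1). All of these counts were small, and none of the list's genes past 1.5-fold had more than 100 reads in a library.

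Of 21 other interleukin genes, 9 had no read in either library and 8 could be compared. IL32, a cytokine that induces other inflammatory cytokines, had 182 and 666 reads, 6.52 and 29.2 RPKM (2.08, 1.84 to 2.33). TSLP, an epithelial cytokine that acts on dendritic cells, had 26 and 76 reads (1.76, 1.1 to 2.46), and IL23A, the p19 subunit of interleukin 23, had 31 and 56 (1.06, 0.4 to 1.74). These 3 were the ones higher by more than 1.5-fold, and the lower one had 9 and 4 reads. The plot of pathway genes by list shows them beside the cytokine genes.

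**Figure D4:**
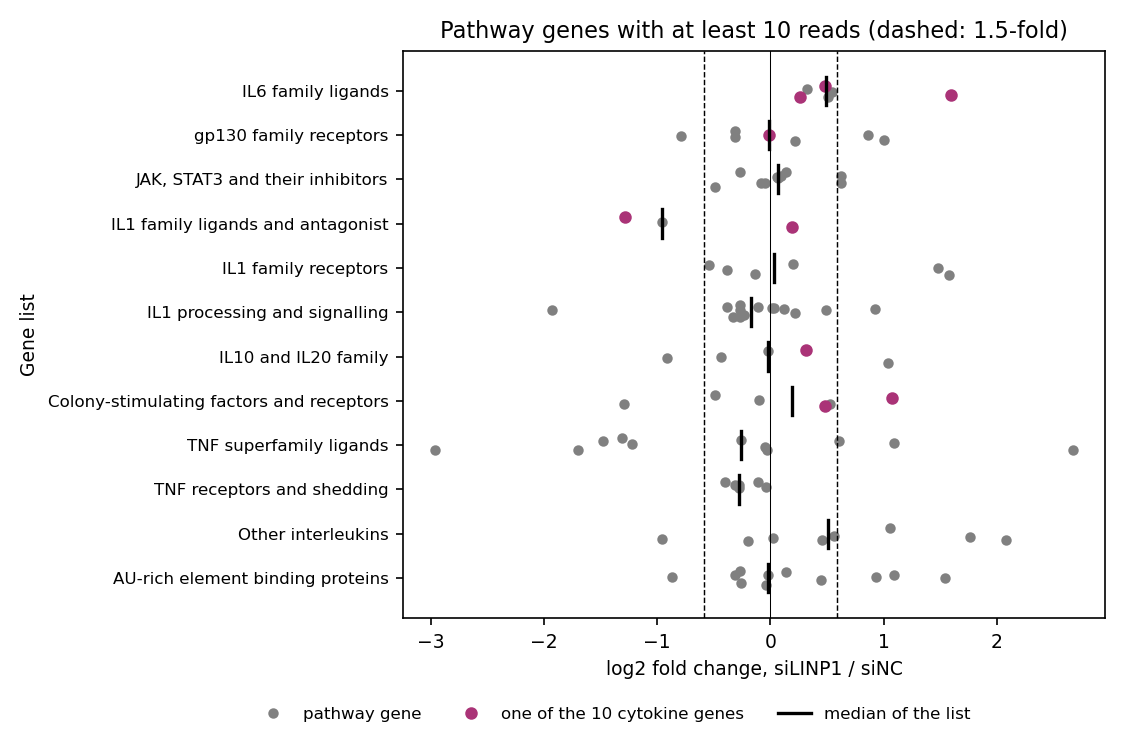
Log2 fold change, siLINP1 over siNC, of genes with at least 10 reads in 12 lists of cytokine pathway genes, with the 10 cytokine genes in colour, a bar for each list's median and dashed lines at 1.5-fold. Medians run from -0.96 (3 IL1 family ligands) to 0.51 (8 other interleukins), and most lists hold genes on both sides of 0.

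Over all 12 lists, 131 genes other than the 10 were named, of which 84 could be compared. Past 1.5-fold were 17 (20.2%) on the higher side and 12 (14.3%) on the lower, against 14.4% and 13.0% of all genes. The whole interval was past 1.5-fold in 10 of the 84 on the higher side and 1 on the lower, against 3.98% and 2.06% of all genes. Their median log2 fold change was -0.05.

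The proteins that bind AU-rich mRNA are the last of these lists, and all 11 genes could be compared. ZFP36 (tristetraprolin), which promotes decay of AU-rich cytokine mRNAs, had 1080 and 2711 reads, 32.7 and 101 RPKM (1.54, 1.43 to 1.64). ZC3H12A (regnase-1), a nuclease for cytokine mRNAs such as that of IL6, had 356 and 655 reads (1.09, 0.9 to 1.28), and RC3H2 (roquin-2) had 592 and 975 (0.93, 0.78 to 1.08). HNRNPD (AUF1), which binds AU-rich elements, had 3413 and 1619 reads (-0.87, -0.95 to -0.78). The whole interval was past 1.5-fold for each of the 4.

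Genes rich in AU pentamers lay on both sides of 0. Both CSF2, with 24.9 pentamers per kb, and IL11, with 5.53, were higher in siLINP1. IL1B, with 9.79 per kb and the same run of 3 overlapping pentamers as IL11, was lower. IL6, with 14.0 per kb, had an interval that held 0. The 4 genes that had nonamers and a fold change were IL11, CSF2, LIF and IL1B, of which 3 were higher and 1 lower.

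**Figure D5:**
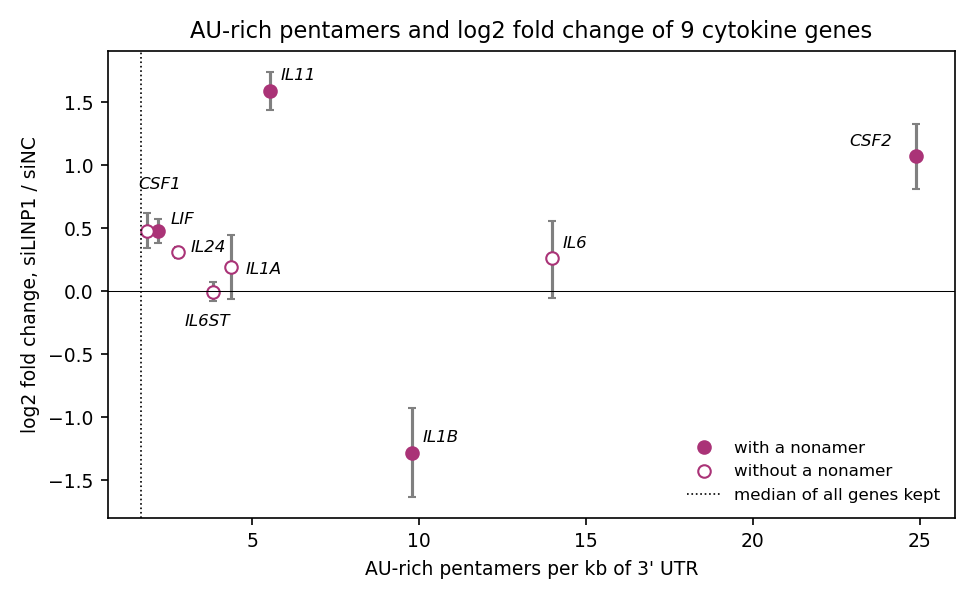
Log2 fold change, siLINP1 over siNC, with 95% counting intervals against the number of AU-rich pentamers per kb of 3′ UTR for 9 cytokine genes. Filled points are genes with the nonamer, and the dotted line is the median of all genes, 1.68 per kb. The 3 genes past 1.5-fold (IL11, CSF2 and IL1B) all hold a nonamer and lie on both sides of 0.

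The study's methods list 2 siRNAs against LINP1, whose guide strands are shown because a short seed match can let an siRNA act on other mRNAs. Each is given 5′ to 3′ with the seed, bases 2 to 8, in capitals.
siLINP1_01: tCTGAAGTcccgcagttgg
siLINP1_02: tCTTGCAGgctggagagtg

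A site for the seed of siLINP1_01 (ACTTCAG) occurred in the 3′ UTR of IL24 (1 site) and IL6ST (2 sites), 2 of the 10 genes against 16.4% of genes with a 3′ UTR. A site for the seed of siLINP1_02 (CTGCAAG) occurred in that of IL11 (1 site), against 13.4%. IL1B, the gene that was lower by more than 1.5-fold, held neither. The 3 genes with a site had log2 fold changes of 0.31, -0.01 and 1.59. Whether a seed acted on any of these genes was not tested, and which oligo was sequenced is not given.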

How the data were processed

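The counts analysed were raw read counts per gene that the authors deposited, from total RNA sequenced on an Illumina HiSeq instrument, aligned to GRCh37/hg19 with Tophat2 and counted with HTSeq. The processing notes of the submitters name HISAT2, TopHat2, Bowtie2, HISAT and hg19. Versions, annotation, counting mode and strand setting are not given in the sources used here. The RPKM values deposited by the authors were recomputed from the counts, the lengths given and the library totals, and matched. Another 12 per-sample columns of the table stayed unused.

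Scaling was by size factors, the median of ratios to the geometric mean (1.08 for siNC, 0.93 for siLINP1). Genes under 10 reads over both libraries were left out, and no pseudocount was used. A fold has the 95% interval (Clopper-Pearson) of how its reads divided between libraries. That of an RPKM value is the exact Poisson interval, and that of a ratio between genes the exact conditional interval of the odds ratio. Reads without molecular identifiers are not independent molecules, so intervals and the 3-read limit for a count of 0 cover counting error only. The fold of 1.5 follows the study.

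The 10 genes and the gene lists were chosen with earlier results of these data known. The genes named are the 10, LINP1, genes of the lists past 1.5-fold with an interval on 1 side of 0 and at least 30 reads, and the 3 genes nearest to IL11. CASP1, CNTFR, CNTF, CLCF1, EBI3, the receptors and signalling genes within 1.5-fold, the chromosomal neighbours and the marker genes were named for their role after their values were seen. Positions of genes, 3′ UTRs and their sequences are those of GRCh37 with the GENCODE annotation lifted to it, and promoter sequences are from RefSeq (GRCh38.p14). Alternatives were total-count (CPM) scaling, edgeR TMM factors, size factors from protein-coding genes or from genes with at least 1000 reads, pseudocounts of 1 and 5, minima of 1 and 100 reads, and a fold of 2. The calculations were tested on simulated data. The software was R 4.3.3 with edgeR 4.0.16 (TMM factors only), and Python 3.11.15 with scipy 1.17.1, pandas 2.3.3, numpy 2.4.6 and matplotlib 3.10.9.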

Additional observations from a re-analysis of the deposited data

How the results depend on the processing

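Precision here is that of counting error alone. No paired analysis was possible because each condition has 1 library and the labels carry no replicate number. Of 54 values of log2 fold changes under other scalings and pseudocounts, 52 lay inside the interval first given. The other 2 were IL24 (0.39) and IL6ST (0.08) under total-count scaling, which moved all log2 fold changes by 0.0822. IL11, CSF2 and IL1B kept their direction and stayed past 1.5-fold under every scaling, pseudocount and minimum of reads tried. With a fold of 2, the whole interval lay past it in 1 gene on the higher side (IL11) and 0 on the lower, in place of 2 and 1. With a minimum of 100 reads, the share of all genes past 1.5-fold was 8.72% higher and 6.77% lower, in place of 14.4% and 13.0%. The 36 other counts stayed within 1.5 times. The other scalings of the pathway lists, chosen after seeing the data, gave 18 to 21 genes past 1.5-fold on the higher side and 12 on the lower, in place of 17 and 12.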
